A study of Rattus norvegicus with 20 samples.

Results

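Liver mRNA was compared between 5 rats fed tofu with soybean oil (TS) and 5 rats fed casein with soybean oil (CS), 10 of the 20 rats that were measured. The rats were chosen by their diet labels alone, and each liver was hybridised to its own Affymetrix rat array. All were male Sprague-Dawley rats, bought at 4 weeks of age, housed singly and fed their diet for 21 days with free access to food and water. Every diet held 200 g/kg of protein and 150 g/kg of fat. By the study's diet compositions, the tofu diets held somewhat less sucrose and less energy per kg than the casein diets. The fat of CS and TS came from soybean, in TS in part from the freeze-dried tofu itself. The other 10 rats, 5 on casein with fish oil (CF) and 5 on tofu with fish oil (TF), had 50 g/kg of fish oil in place of that much soybean fat. By the study's methods the tofu diets still held some casein to match the protein content, freeze-dried tofu carries other parts of the bean along with its protein, and the rats that ate the most and the least in each group were not put on arrays. The comparison is therefore between whole diets, and food was withdrawn for a few hours before the livers were taken.

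Casein is the main protein of milk and tofu a curd of soybean protein, and exchanging them is a common way to study how the source of dietary protein acts on the liver. The liver turns surplus carbon into fatty acids: ATP citrate lyase and acetyl-CoA carboxylase make the building blocks, fatty acid synthase joins them, malic enzyme and the pentose phosphate pathway supply NADPH, and desaturases and elongases finish the chains before they are stored as triacylglycerol. The transcription factors SREBP-1c and ChREBP switch many of these genes on after carbohydrate-rich meals. The liver also makes bile acids from cholesterol, breaks down amino acids, and holds large families of enzymes that oxidise, hydrolyse and conjugate foreign compounds.

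Levels are given as z, a score on a log scale in which 0 is near the middle of all probe sets of an array, and in which, by the study's methods, a step of 0.2 stands for 1.41-fold. Differences below are mean z of TS minus mean z of CS, and folds were converted from them where both group means lay above the highest array median. Where a gene has several probe sets, the brightest stands for it. An SE is that of the difference in the limma fit, and the members of gene lists given with a difference and its SE alone had an adjusted p of 0.05 or more. Marker levels matched the liver label, and the mean z of 7 hepatocyte markers was 3.14 to 3.22 in CS and 3.21 to 3.38 in TS, against -0.10 to 0.02 and -0.19 to 0.13 for 5 bile duct markers. In bulk liver, fewer cells of a type and less RNA per cell cannot be told apart. CS-1 and TS-1, the rat numbered 1 in each group, had low values of the 5' beta-actin control probe set, 1.39 and 1.41, against 1.87 to 2.12 in the other 8 rats. CF and TF held 1 such array each as well. TS-7 had the lowest mean correlation with the other 19 arrays among the 10, 0.943 against 0.951 to 0.954.

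Of 31040 probe sets tested, 22 passed an adjusted p of 0.05 in limma, 0.0709% of those tested, 13 of them higher and 9 lower in TS. Counted as genes, 15 of 14217 passed, 0.106%, 12 higher and 3 lower. At each of the 22 probe sets the values of the 5 TS rats and of the 5 CS rats did not overlap, which held for 422 probe sets in all, 1.36%. The largest difference was that of the lipid droplet gene Pnpla3, which fell, and fatty acid synthase (Fasn), malic enzyme (Me1) and the fatty acid desaturase Fads2 fell too, together with 2 probe sets without a gene name. The rises were led by the quinone reductase Nqo1, the monooxygenase Fmo1 and the lipopolysaccharide co-receptor Cd14. Next in size were Car3, on 1 of its probe sets, Bpifb1 and the carboxylesterase Ces1d, and Ces1c rose less. Leaving out 1 rat at a time gave 11 to 26 probe sets, and 11 of the 22 passed in each of these 10 fits: the 3 of Pnpla3, 1370870_at of Me1, both unnamed ones, and those of Nqo1, Fmo1, Cd14, Ces1d and Bpifb1. The calls for Ces1c, Slfn4, Car3, Lrrc56 and Olig2 did not, and each was lost without TS-1 and again without TS-4. Without both CS-1 and TS-1, the rats with low 5' beta-actin, 7 of the 22 passed: the 3 probe sets of Pnpla3, both unnamed ones, Nqo1 and Cd14. At an unadjusted p under 0.01 in limma and a difference over 0.2, the levels the study used for single genes with a different test on perfect-match probe data, 184 genes stood out, 1.29% of those tested. Of these, 113 were higher in TS, 0.795%, and 71 lower, 0.499%. These levels, called the study's thresholds below, carry no correction for the number of genes and serve only to describe gene lists. At an unadjusted p under 0.05, which is likewise used only as a description, 5.07% of genes were higher and 2.46% lower in TS.

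**Figure D1:**
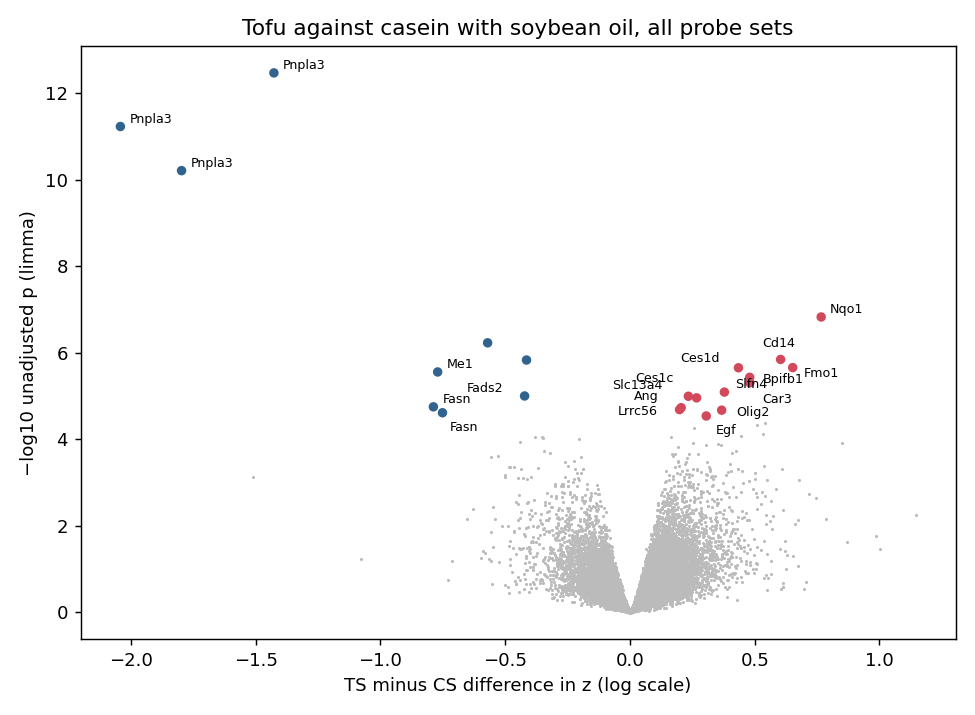
Each point is a probe set, with the TS minus CS difference in z on the x axis and the negative log10 of the unadjusted p of limma on the y axis. The 22 probe sets with an adjusted p under 0.05 are coloured, blue where lower and red where higher in TS, and the 3 probe sets of Pnpla3 stand farthest to the left, at -2.04, -1.80 and -1.43.

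Pnpla3 encodes adiponutrin, a lipid droplet protein with lipase and acyltransferase activity whose mRNA falls in fasting and returns with refeeding. Its brightest probe set read 1.76, 2.21, 1.87, 1.996 and 2.13 in the CS rats 1, 2, 5, 6 and 7, and 0.31, -0.29, -0.06, -0.06 and -0.16 in the TS rats 1, 2, 4, 5 and 7. The lowest CS rat was thus 1.44 above the highest TS rat, and the TS rats lay at the middle of their arrays. The difference was -2.04 (SE 0.13, limma adjusted p = 9e-08). No fold is given, because the TS mean was not above the array medians. The other 2 probe sets of the gene fell as well, by 1.80 (adjusted p = 6.31e-07) and by 1.43 (adjusted p = 1.04e-08). With fish oil the same gene read 0.90 to 1.61 in CF and -0.81 to -0.34 in TF, a difference of -1.83. Its promoter is shown because no other gene moved as far:

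Pnpla3: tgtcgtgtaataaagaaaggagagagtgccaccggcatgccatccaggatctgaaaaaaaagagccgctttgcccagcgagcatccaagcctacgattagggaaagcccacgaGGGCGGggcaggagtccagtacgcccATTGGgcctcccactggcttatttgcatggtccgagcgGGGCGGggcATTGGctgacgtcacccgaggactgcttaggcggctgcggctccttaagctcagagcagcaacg

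The sequence is the 250 bases before the start of Pnpla3 from RefSeq (GRCr8, chr7:117173278-117173527, plus strand). Capitals mark matches to 2 motifs, CCAAT, the letters bound by nuclear factor Y, a partner of SREBP, and GGGCGG, a letter string bound by Sp1, each searched on both strands from 250 bases before to 50 after the start. Each was found at 2 places: CCAAT, on the reverse strand, at bases -111 to -107 and -64 to -60 from the start, and GGGCGG at -137 to -132 and -73 to -68. These letters are common, since CCAAT occurs in 37.7% and GGGCGG in 34.9% of 27457 promoters of 300 bases. Neither CACGTG (6.65% of promoters), TCACNCCAC (1.13%) nor TGATGNAAT (1.05%) was found in the window.

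Fasn, the enzyme that builds palmitate, read 2.54, 2.59, 2.53, 2.01 and 2.53 in the 5 CS rats and 1.94, 1.43, 1.64, 1.87 and 1.57 in the 5 TS rats. Rat CS-6 lay well below the other CS rats, only 0.08 above the highest TS rat. Fasn fell 3.64-fold (difference -0.75, SE 0.13, adjusted p = 0.0359), and its second probe set fell by 0.79 (adjusted p = 0.0319). The call depended on single rats: it was lost without CS-1, CS-2, CS-5, CS-7, TS-2, TS-4 or TS-7, with an adjusted p of up to 0.195 over all fits. No promoter of Fasn was in the table used.

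Fads2, which makes the first double bond in the path from linoleic to arachidonic acid, read 2.25, 2.33, 2.33, 2.10 and 2.29 in CS and 1.86, 1.80, 1.69, 1.91 and 1.93 in TS. Every TS rat was below every CS rat, and Fads2 fell 2.07-fold (difference -0.42, SE 0.07, adjusted p = 0.0208). Its call, too, was lost when any 1 of CS-1, CS-2, CS-5, CS-7, TS-1, TS-2 or TS-4 was left out.

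Me1, which yields NADPH as it turns malate into pyruvate, is measured by 2 probe sets that differ in size of response. On 1370870_at the CS rats read 1.69, 1.82, 1.41, 1.26 and 1.59 and the TS rats 0.74, 0.69, 1.01, 0.82 and 0.67. The groups were apart by 0.26, and this probe set fell 3.76-fold (difference -0.77, adjusted p = 0.00858). On the brighter 1370067_at the difference was -0.48 (adjusted p = 0.198), so that Me1 is counted as not called among genes. A pair of probe sets with no gene name also fell. 1373778_at read 1.09 to 1.37 in CS and 0.45 to 0.85 in TS (2.66-fold, adjusted p = 0.00364), and 1367856_at read 1.19 to 1.53 in CS and 0.82 to 1.07 in TS (2.04-fold, adjusted p = 0.00649).

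**Figure D2:**
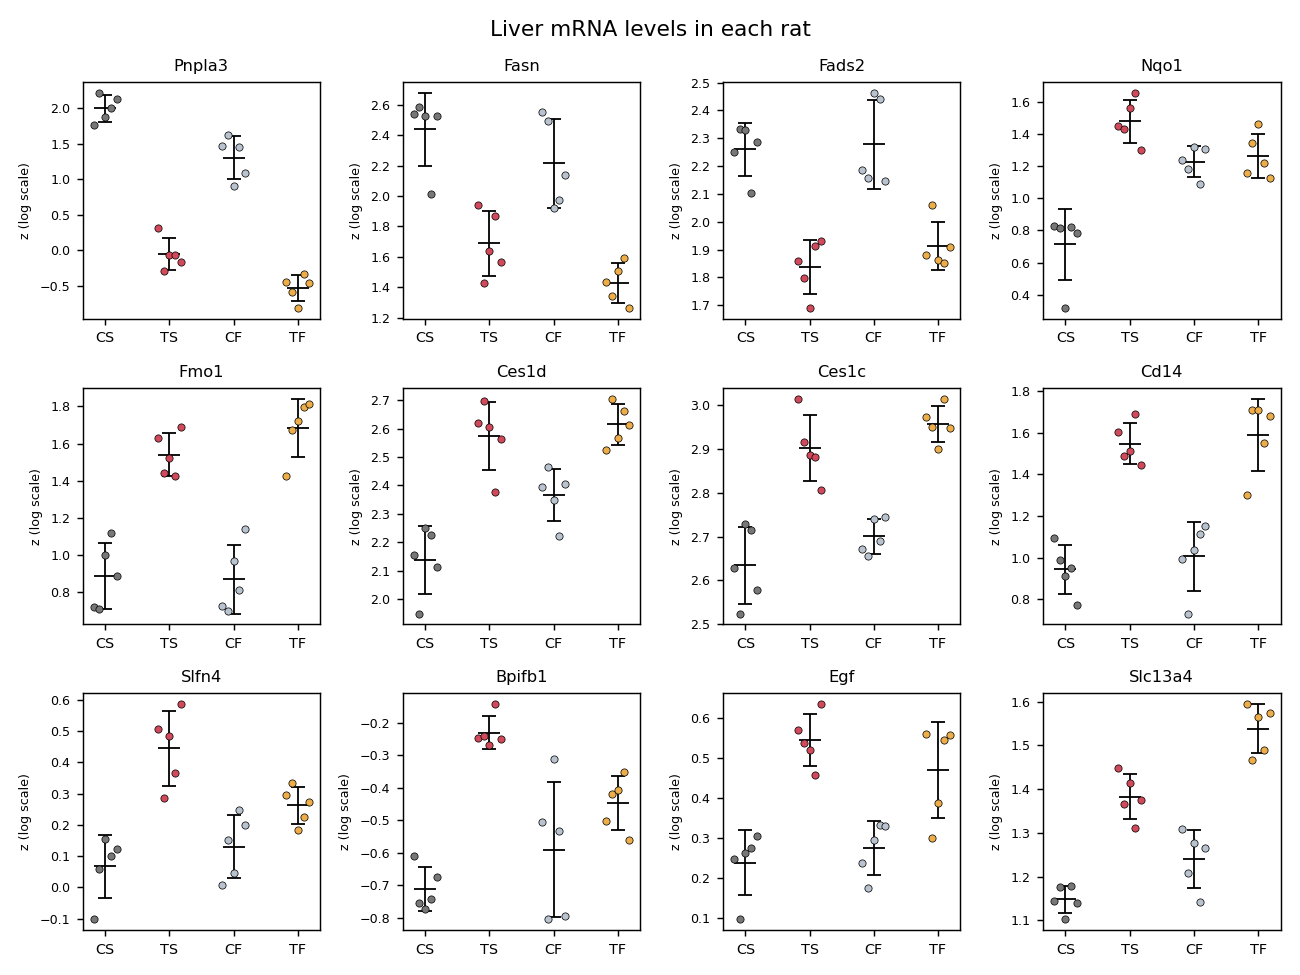
Each panel plots z (log scale) for 1 gene in every rat, with the 4 diet groups on the x axis and bars for the mean and SD of 5 rats. In each panel the TS and CS points do not overlap. For Nqo1 the CS points alone lie below 0.9, while all TS, CF and TF points lie above 1.0.

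Most other members of the lipid synthesis lists lay in the direction of these falls, without passing the test. Of 10 fatty acid synthesis genes 9 were lower in TS, with a median difference of -0.20 against 0.0141 over all genes, and Fasn alone was called. In all 4 members met the study's thresholds, all lower, against 0.499% of all genes. The further ones named here were chosen after their values were seen. Acly, ATP citrate lyase, was lower by 0.35 (SE 0.07, adjusted p = 0.0927), Acaca, acetyl-CoA carboxylase, by 0.30 (SE 0.08), and Thrsp, a regulator of lipogenesis of the thyroid hormone response, by 0.35 (SE 0.12). Acly read 2.44 to 2.64 in CS and 2.05 to 2.30 in TS, with no overlap. The mean z of the 10 genes ran from 1.59 to 1.80 in CS, where CS-6 was the low rat, and from 1.36 to 1.58 in TS. Srebf1, the gene of SREBP-1c, had a difference of -0.14 (SE 0.10).

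In desaturation and elongation the median was nearer 0, -0.03, with 8 of 12 members lower and the rest higher. Of the lower ones 5 met the study's thresholds, against 0.499% of all genes, and Fads2 was called. Scd, the desaturase that makes oleic acid, read 2.91, 2.95, 3.03, 2.80 and 2.98 in CS and 1.98, 2.63, 2.40, 2.36 and 2.53 in TS. Its groups did not overlap, yet the spread among TS rats was wide, and the difference of -0.56 (2.6-fold) had an adjusted p of 0.155. Elovl6, the elongase of palmitate, was lower by 0.41 (adjusted p = 0.219). Both of these were picked after their values were seen. Among 6 genes of NADPH supply none was called by its brightest probe set. Beside Me1, Pgd of the pentose phosphate pathway was lower by 0.18 (SE 0.06) and Tkt by 0.10 (SE 0.06).

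Of 21 genes of triacylglycerol synthesis and lipid droplets, 16 were lower in TS. Pnpla3 was the only member called and the only member at the study's thresholds, and the median of -0.06 was far from its own value. Of 14 genes of fatty acid uptake, binding and activation none was called. The fatty acid binding proteins Fabp5 and Fabp2 were lower by 0.41 (SE 0.12) and 0.40 (SE 0.10), and the acyl-CoA binding protein Dbi by 0.22 (SE 0.05).

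**Figure D3:**
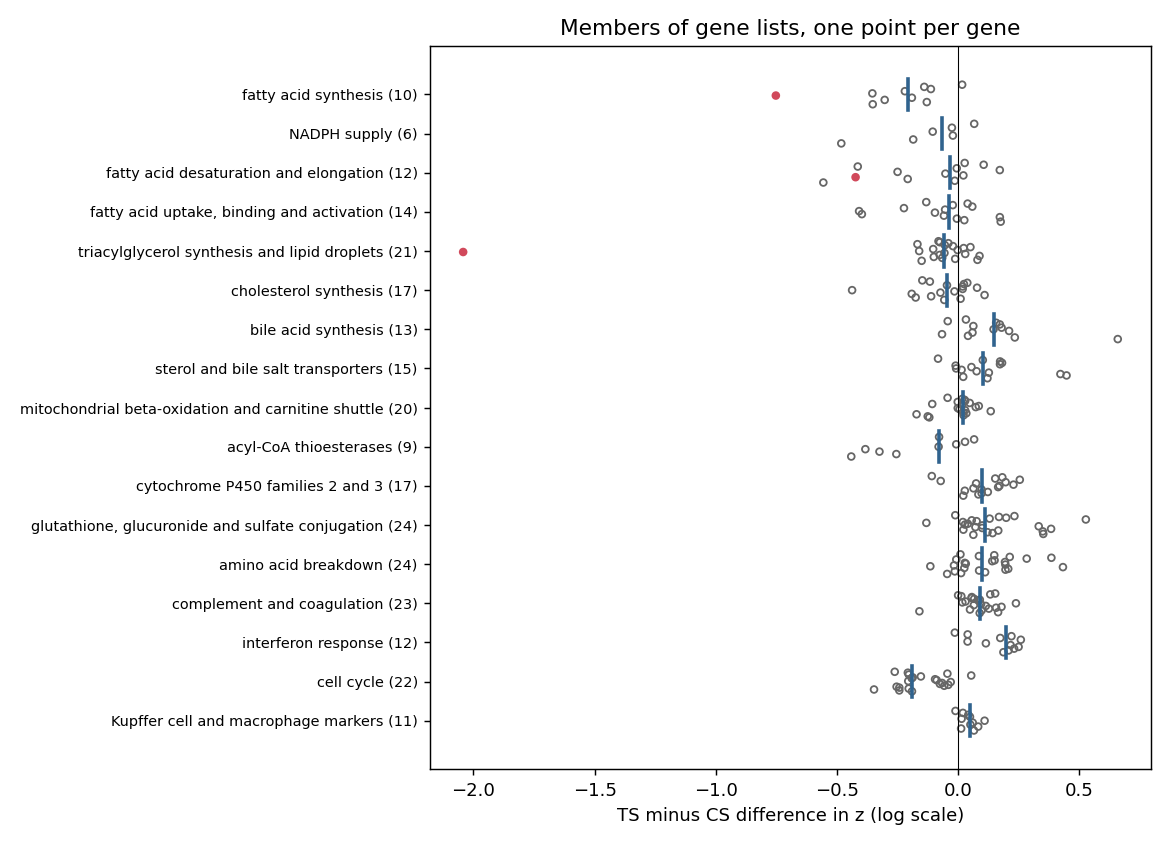
Each point is a gene of the list named on the y axis, with its number of measured members, placed by its TS minus CS difference in z. Blue bars mark list medians, and the filled red points are the 3 genes of these lists with an adjusted p under 0.05, Fasn, Fads2 and Pnpla3. Members of fatty acid synthesis and of the cell cycle lie mostly left of 0, and those of bile acid synthesis, conjugation, complement and the interferon response mostly right of it.

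No gene of sterol or bile acid handling was called. Among 17 genes of cholesterol synthesis, 10 were lower, with the largest differences at Lss, lanosterol synthase (-0.44, SE 0.14), Fdps (-0.19, SE 0.05) and Pmvk (-0.17, SE 0.05). Lss read 1.47 in TS-5, against 0.56 to 0.77 in the other TS rats. Insig1, which holds SREBP in the endoplasmic reticulum and is itself an SREBP target, was lower by 0.48 (2.3-fold, adjusted p = 0.198), while its relative Insig2 was higher by 0.20 (SE 0.06).

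Bile acid synthesis leaned the other way, with 11 of 13 members higher and a median of 0.15. Cyp7a1, the rate-limiting enzyme of bile acid synthesis, read -0.06, -0.71, 0.36, 0.50 and 0.16 in CS and 0.20, 0.79, 0.41, 0.77 and 1.38 in TS. The groups overlapped and varied widely, and the difference of 0.66 did not pass (SE 0.23, unadjusted p = 0.00902, adjusted p = 0.468). Next in size were Cyp8b1, the enzyme that directs synthesis to cholic acid, at 0.24 (SE 0.08) and Akr1d1 at 0.21 (SE 0.08). Of 15 sterol and bile salt transporters 12 were higher. Abcg5 and Abcg8, the paired subunits of the pump that moves cholesterol into bile, were higher by 0.45 (SE 0.11) and 0.42 (SE 0.12), and the uptake carrier Slco1b2 by 0.18 (SE 0.06). Abcg8 was dim, with means of -0.58 in CS and -0.16 in TS, both below the array medians, and its groups overlapped. Of 17 apolipoprotein and lipoprotein assembly genes, the lipase inhibitors Angptl8 and Angptl4 were lower by 0.32 (SE 0.14) and 0.30 (SE 0.08), and Apob was higher by 0.14 (SE 0.07).

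Fatty acid breakdown showed no call and small differences. The 20 genes of mitochondrial beta-oxidation and the carnitine shuttle ranged from -0.17 to 0.14, with Acadm at 0.14 (SE 0.05) and Cpt1a, the gate of the carnitine shuttle, at -0.12 (SE 0.07). In the peroxisomal and omega oxidation list the largest differences were those of Cyp4a8 (0.33, SE 0.12) and Ech1 (-0.23, SE 0.07). The acyl-CoA thioesterases, which free fatty acids from coenzyme A, were lower in 7 of 9. The 3 with the largest differences were Acot1 (-0.44, SE 0.31), Acot4 (-0.38, SE 0.08) and Acot3 (-0.32, SE 0.10). These are near-identical neighbours, so their probe sets may not tell them apart. Fgf21, a hormone of the fasted liver, was lower by 0.53 (2.47-fold, adjusted p = 0.155) and Pdk4, the kinase that shuts off pyruvate dehydrogenase, by 0.41 (2.04-fold, adjusted p = 0.323), both with no overlap between the groups. Glycolysis, gluconeogenesis and glycogen genes (16) lay between -0.15 and 0.15, with none at an unadjusted p under 0.05. In the TCA cycle Suclg2 was higher by 0.16 (SE 0.04), and among 16 genes of oxidative phosphorylation Cox6c was lower by 0.27 (SE 0.07).

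Nqo1 had the largest rise among the called genes. It encodes NAD(P)H quinone dehydrogenase, which reduces quinones in a single step and is a classic target of the Nrf2 transcription factor. It read 0.83, 0.82, 0.32, 0.82 and 0.79 in the CS rats and 1.45, 1.43, 1.56, 1.66 and 1.30 in the TS rats. CS-5 lay far below the other CS rats, which read 0.79 to 0.83, while the lowest TS rat was 0.47 above the highest CS rat. Nqo1 rose 3.73-fold (difference 0.77, SE 0.09, adjusted p = 0.00115). Without CS-5 the difference was 0.67 and still passed. On fish oil it read 1.24, 1.18, 1.32, 1.09 and 1.31 in CF and 1.16, 1.35, 1.46, 1.22 and 1.13 in TF, a difference of 0.03 (unadjusted p = 0.717). Of the other 13 genes in the list of Nrf2 targets and glutathione synthesis none was called. With Nqo1 itself counted, 8 of 14 were higher, with a median of 0.04. The largest after Nqo1, named after their values were seen, were Akr7a3 (0.26, SE 0.12), Osgin1 (0.19, SE 0.11) and Gclm, a subunit of the first enzyme of glutathione synthesis (0.14, SE 0.06). The promoter of Nqo1 is shown because it was the gene with the largest rise:

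Nqo1: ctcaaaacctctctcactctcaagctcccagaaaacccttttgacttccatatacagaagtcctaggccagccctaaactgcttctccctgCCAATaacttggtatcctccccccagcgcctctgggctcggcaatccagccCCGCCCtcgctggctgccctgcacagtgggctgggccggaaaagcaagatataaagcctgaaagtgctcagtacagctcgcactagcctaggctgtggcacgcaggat

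It covers the 250 bases before the start (RefSeq, GRCr8, chr19:52220268-52220517, minus strand), with capitals for CCAAT at bases -159 to -155 and GGGCGG, on the reverse strand, at -108 to -103. A further CCAAT lies past the start, outside the bases shown. The core of the antioxidant response element, TGACNNNGC, a motif added after Nqo1 was seen among the calls, occurs in 12.2% of promoters and was not found in this window. Bases farther upstream were not searched, so its absence from the gene's whole promoter is not shown.

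Fmo1 encodes a flavin-containing monooxygenase that oxidises nitrogen and sulfur atoms of drugs and food amines. The CS rats read 0.72, 0.71, 1.002, 1.12 and 0.89 and the TS rats 1.63, 1.44, 1.52, 1.43 and 1.69, and the closest rats of the groups were 0.31 apart. Fmo1 rose 3.07-fold (difference 0.65, SE 0.10, adjusted p = 0.00763), a call held in every fit that left out 1 rat but lost without both CS-1 and TS-1 (adjusted p = 0.107). Of the other 3 members of the family measured, none was called, and Fmo5 had a difference of 0.26 (SE 0.20). The upstream sequence of Fmo1 is shown as the next largest rise among the called genes:

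Fmo1: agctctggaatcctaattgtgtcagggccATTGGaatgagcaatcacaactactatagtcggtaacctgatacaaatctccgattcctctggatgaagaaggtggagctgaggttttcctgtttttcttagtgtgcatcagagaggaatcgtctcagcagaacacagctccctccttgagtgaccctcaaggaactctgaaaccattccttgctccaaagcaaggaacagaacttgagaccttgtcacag

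These are the 250 bases before its start (RefSeq, GRCr8, chr13:77747667-77747916, minus strand). The capitals are a CCAAT on the reverse strand at bases -221 to -217, and none of the other motifs was found. The promoters of Pnpla3, Nqo1 and Fmo1 therefore all held a CCAAT, as do 37.7% of all promoters, and GGGCGG was held by Pnpla3 and Nqo1.

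Ces1d and Ces1c are carboxylesterases that split esters of drugs and lipids, Ces1d in the endoplasmic reticulum and Ces1c as a secreted enzyme of plasma. Ces1d read 2.16, 1.95, 2.25, 2.23 and 2.11 in CS and 2.62, 2.70, 2.61, 2.38 and 2.56 in TS, and rose 2.11-fold (difference 0.44, adjusted p = 0.00763). Ces1c read 2.63, 2.52, 2.73, 2.71 and 2.58 in CS and 3.02, 2.92, 2.89, 2.88 and 2.81 in TS, and rose 1.58-fold (difference 0.27, adjusted p = 0.0213). All TS rats lay above all CS rats at both. The call of Ces1c was lost after quantile normalization, and its adjusted p was up to 0.319 over all fits. A second, dim probe set of Ces1c, 1397427_at, had a difference of -0.05, and the 2 genes are close copies that probes may confuse.

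Most measured members of the larger families of drug metabolism were higher in TS, with no call. Of 17 P450 genes of families 2 and 3, 15 were higher, with a median of 0.10 against 0.0141 over all genes. The mean z of the 17 was 2.23 to 2.33 in CS and 2.37 to 2.45 in TS. Cyp3a2, Cyp2c23 and Cyp2e1 led with differences of 0.26 (SE 0.07), 0.23 (SE 0.07) and 0.20 (SE 0.07). Of 24 conjugating enzymes 22 were higher, among them the sulfotransferase Sult1c2 at 0.53 (SE 0.14) and the glutathione transferases Gstm7 at 0.39 (SE 0.13) and Gsta3 at 0.35 (SE 0.14). Cyp1a2, a target of the aryl hydrocarbon receptor, was higher by 0.39 (SE 0.11), whereas Cyp1a1, the more inducible target, was at -0.09 (SE 0.06). Nr1i3, the constitutive androstane receptor that drives many of these genes, was higher in every TS rat, 0.48 to 0.84 against -0.05 to 0.37 (2.4-fold, adjusted p = 0.061). The hepatocyte markers were also higher as a list, 7 of 7 with a median of 0.09, and the part of that in these families was not tested.

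Cd14 binds lipopolysaccharide and passes it to Tlr4. It is made by macrophages and also by hepatocytes. The CS rats read 1.09, 0.99, 0.91, 0.95 and 0.77 and the TS rats 1.60, 1.49, 1.51, 1.69 and 1.45, with the closest rats 0.35 apart. Cd14 rose 2.82-fold (difference 0.60, SE 0.09, adjusted p = 0.00649) and passed in every alternative fit. Over the 11 Kupffer cell and macrophage markers the mean z was 1.11 to 1.32 in CS and 1.17 to 1.38 in TS. 10 of them were higher, none at an unadjusted p under 0.05, and Cd68 was at 0.07 (SE 0.07). Their part in the rise of Cd14 was not tested. In the same list of lipopolysaccharide sensing and chemokines the B cell chemokine Cxcl13, named after its values were seen, was higher by 0.53 with no overlap (adjusted p = 0.0904), and the other 10 genes were under 0.2 in size.

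Slfn4, a Schlafen gene of myeloid cells that interferon induces, read -0.10, 0.06, 0.15, 0.10 and 0.12 in CS and 0.51, 0.28, 0.49, 0.36 and 0.59 in TS. Its lowest TS rat was 0.13 above the highest CS rat, and Slfn4 rose 1.92-fold (difference 0.38, adjusted p = 0.0193). The second probe set of the gene, 1371163_at, was dim and had a difference of -0.07. Of 12 interferon response genes none was called, but 11 were higher, 7 of them at an unadjusted p under 0.05 against 5.07% of all genes, with a median of 0.20. Ifit3, Mx2 and Mx1 had differences of 0.26 (SE 0.12), 0.25 (SE 0.10) and 0.23 (SE 0.10). The mean z of the list ran from 0.52 to 0.65 in CS and from 0.65 to 0.90 in TS, so that only TS-2 fell within the CS range. In TF minus CF the median was -0.01, with 6 of 12 higher.

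Bpifb1, a secreted protein of airway and mucosal linings, was low on every array, -0.77 to -0.61 in CS and -0.27 to -0.14 in TS. It rose by 0.48 (adjusted p = 0.0104). Olig2, a transcription factor of the brain's oligodendrocytes, read -0.66 to -0.32 in CS and -0.20 to 0.09 in TS on 1 probe set (difference 0.37, adjusted p = 0.0328), while on its other probe set the difference was 0.00. Lrrc56, a gene of cilia, read -0.34 to -0.24 in CS and -0.15 to -0.03 in TS, and rose by 0.20 (adjusted p = 0.0328). Nearly all of these values lay below the array medians, where the files give no measure of background, so the 3 are reported as differences without a fold.

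The remaining calls were 4 rises. Egf, epidermal growth factor, read 0.25, 0.10, 0.26, 0.28 and 0.30 in CS and 0.57, 0.54, 0.52, 0.46 and 0.63 in TS, and rose 1.69-fold (adjusted p = 0.0406). CS-2 lay below the other CS rats. Ang, angiogenin, a secreted ribonuclease of the liver, read 2.47 to 2.60 in CS and 2.69 to 2.80 in TS, and rose 1.42-fold (adjusted p = 0.0319). Slc13a4, a sulfate transporter, read 1.14, 1.18, 1.10, 1.18 and 1.14 in CS and 1.45, 1.37, 1.41, 1.31 and 1.38 in TS, and rose 1.5-fold (adjusted p = 0.0208). The spread of its CS rats was the narrower, 0.03 as an SD. Car3, a carbonic anhydrase abundant in male rat liver, read 2.06 to 2.53 in CS and 2.60 to 2.92 in TS on 1 probe set, 1386977_at, where it rose (2.28-fold, adjusted p = 0.0127). On the brighter one the difference was 0.24 (adjusted p = 0.146). Of these, Egf, Ang and Slc13a4 kept their calls in 1 or 2 of the 10 fits that left out a rat, and lost them after quantile normalization.

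Genes of amino acid metabolism were higher in TS more often than lower, without a call. Of 24 genes of amino acid breakdown 19 were higher (median 0.10), 3 of them at the study's thresholds, against 0.795% of all genes. The largest were Sds, serine dehydratase (0.43, SE 0.17), Oat, ornithine aminotransferase (0.39, SE 0.10), and Bckdhb of branched-chain keto acid breakdown (0.28, SE 0.09). In the urea cycle list 9 of 10 were higher, led by Otc (0.19, SE 0.07), Glul (0.18, SE 0.08) and Asl (0.15, SE 0.05). Soybean protein is poorer in methionine than casein is. Of 16 genes of the methionine cycle and sulfur amino acids 12 were higher, with Csad, on the way to taurine, at 0.25 (SE 0.08), Cbs at 0.17 (SE 0.06) and Cth at 0.13 (SE 0.06). Genes that rise when an amino acid runs short were lower in 13 of 19, led by Phgdh of serine synthesis (-0.32, SE 0.10) and Nupr1 (-0.18, SE 0.08). Among transporters the glutamate carrier Slc1a2 was higher by 0.31 with no overlap (adjusted p = 0.181) and Slc7a5 by 0.19 (SE 0.06).

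Hamp, which encodes hepcidin, the hormone that lowers iron uptake and release, had the second largest difference of any named gene. It read 1.22, 2.23, 2.55, 0.27 and 1.12 in CS and -0.10, 0.11, -0.21, 0.09 and -0.05 in TS. All TS rats were below the lowest CS rat, but the CS rats spread over 2.29, and the difference of -1.51 did not pass (SE 0.37, unadjusted p = 0.000731, adjusted p = 0.214). With fish oil it read 0.01 to 2.30 in CF and -0.37 to 0.15 in TF, with overlap. Tfrc, the transferrin receptor, was higher by 0.67 (SE 0.22), and Bmp6, the ligand that drives hepcidin, was at -0.17 (SE 0.07). Hamp and Tfrc were the 2 of 16 iron genes at the study's thresholds, against 1.29% of all genes in either direction.

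Cell cycle genes were lower in 21 of 22, with a median of -0.19, against 0.00 and 11 of 22 in TF minus CF. None was called, and 3 had an unadjusted p under 0.05, against 2.46% of all genes that were lower at that level. Cyclin A (Ccna2) was lower by 0.35 (SE 0.17), cyclin D1 (Ccnd1) by 0.26 (SE 0.06) and Cdk1 by 0.25 (SE 0.12). By rat, the mean z of the list was 0.48, 0.15, 0.24, 0.20 and 0.37 in CS and 0.02, 0.17, 0.17, 0.15 and 0.18 in TS. The groups overlap, and the highest CS rat and the lowest TS rat are CS-1 and TS-1, the 2 with low 5' beta-actin, whose part in the difference was not tested.

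**Figure D4:**
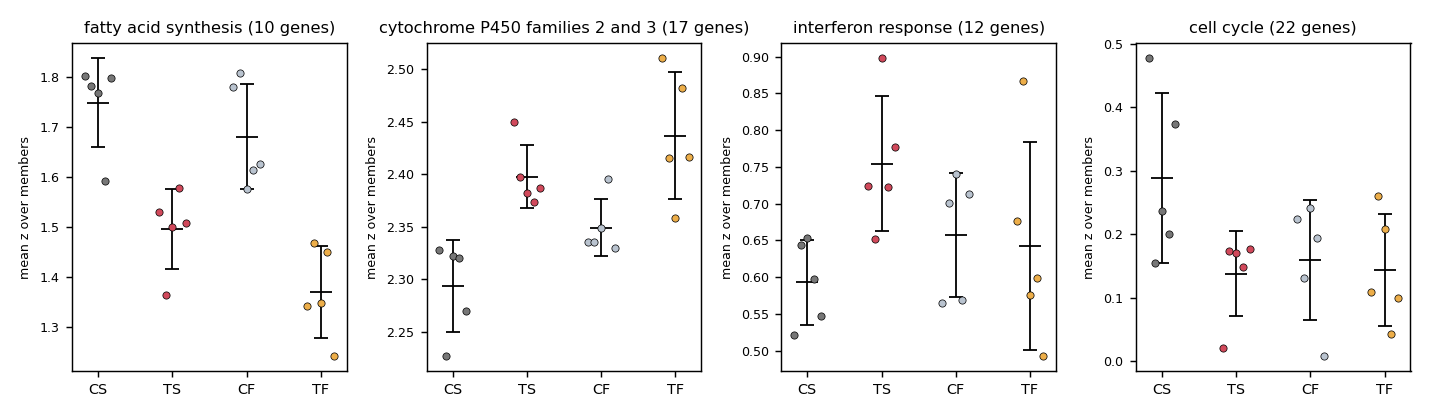
Each point is 1 rat's mean z over the members of the list in the title, with bars for the mean and SD of 5 rats per diet. The TS and CS points do not overlap for fatty acid synthesis, lower in TS, and for the P450 list, higher in TS. For the interferon and cell cycle lists the points overlap with both oils.

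Among hormone-related genes none was called. Cyp17a1, of androgen synthesis, was lower in all TS rats, 0.54 to 0.62 against 0.79 to 1.20 (1.82-fold, adjusted p = 0.0927), and Hsd3b5 was higher by 0.28 (SE 0.09). The 11 genes of the growth hormone and IGF axis, the 17 of the circadian clock and the 7 of the thyroid axis held none at the study's thresholds. In retinoid metabolism Cyp26b1, which clears retinoic acid, was at 0.36 (SE 0.11) and Aldh1a1, which makes it, at -0.25 (SE 0.11).

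Secreted plasma proteins were mostly higher by small amounts. Of 23 complement and coagulation genes 22 were higher, 10 at an unadjusted p under 0.05 against 5.07% of all genes, led by F9 (0.24, SE 0.09), C1s (0.18, SE 0.06) and C5 (0.17, SE 0.06). All 15 protease inhibitors were higher, with a median of 0.09, A2m at 0.34 (SE 0.11) and Pzp at 0.16 (SE 0.05). Of 11 acute phase proteins 9 were higher, and Lcn2, lipocalin-2, was at -0.21 (SE 0.12). Alb, albumin, was at 0.09 (SE 0.05), a value of 0 after quantile normalization, in which the brightest probe sets are set equal. These lists hold genes that hepatocytes express strongly, and the hepatocyte markers themselves were higher, as given above.

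Markers of the other cells of the liver differed little as groups. Of 11 endothelial markers all were higher, with a median of 0.05, and Stab2 had the largest difference, 0.19 (SE 0.04). Of 12 stellate cell and matrix markers 8 were higher, and Rgs5, of pericytes, stood apart at 0.35 (adjusted p = 0.112). Lymphocyte markers had a mean z of -0.27 to -0.12 in CS and -0.29 to -0.09 in TS. Of 5 erythroid markers the band 3 gene Slc4a1 was higher by 0.32 (SE 0.07). None of the 7 marker lists held a called gene.

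Over all 47 lists, which hold 607 measured genes, 6 genes were called: Pnpla3, Fasn, Fads2, Nqo1, Fmo1 and Cd14. Among all genes 0.106% were called. The lists were written with earlier results of these data known, so the count is no test of them. At the study's thresholds 28 of the 607 list genes were higher and 28 lower, against 0.795% and 0.499% of all genes. Outside the lists and the naming rule, and chosen after its values were seen, Lox, the lysyl oxidase that cross-links collagen, had the largest positive difference at those thresholds, 1.15 (SE 0.37, unadjusted p = 0.00569, adjusted p = 0.411). It read 0.80, 0.25, 0.99, 1.74 and 1.39 in CS and 2.29, 1.93, 2.28, 2.15 and 2.24 in TS. The groups did not overlap, with a range of 1.49 among the CS rats and 0.36 among the TS rats. Nat8, an acetyltransferase of the kidney and liver, was higher by 0.54 (SE 0.12).

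The same exchange of protein was made with fish oil in other rats, so that TF minus CF shares no array with TS minus CS. Both were read from the same fit, however, and share its estimate of the spread. A probe set called through a small SE has that small SE with both oils. There, 21 probe sets were called, 0.0677% of those tested. Of the 22 probe sets called with soybean oil 21 had the same sign with fish oil, 12 were called there too and 18 had an unadjusted p under 0.05, against 6.9% of all probe sets. By direction, 8 of the 9 falling and 4 of the 13 rising probe sets were called with both oils. The 9 that fell stand for 4 named genes and 2 unnamed probe sets, and the 13 that rose for 13 genes. The 2 shares are therefore not counts of separate genes alike. Fmo1 rose 4.06-fold (adjusted p = 0.000705), Cd14 2.73-fold (adjusted p = 0.00769), Slc13a4 1.67-fold (adjusted p = 0.00206) and Ces1c 1.55-fold (adjusted p = 0.0298) with fish oil. Fasn fell 3.88-fold there (adjusted p = 0.0278).

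Of the 184 genes at the study's thresholds with soybean oil 164 (89.1%) had the same sign with fish oil, against 61.7% of all genes. 95 of them (51.6%) also had an unadjusted p under 0.05 in that direction, against 5.55% of all genes. Over the 14217 genes, which are not independent of each other, Pearson's r between the 2 sets of differences was 0.33 and Spearman's rho 0.291, on the same probes but on separate rats.

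**Figure D5:**
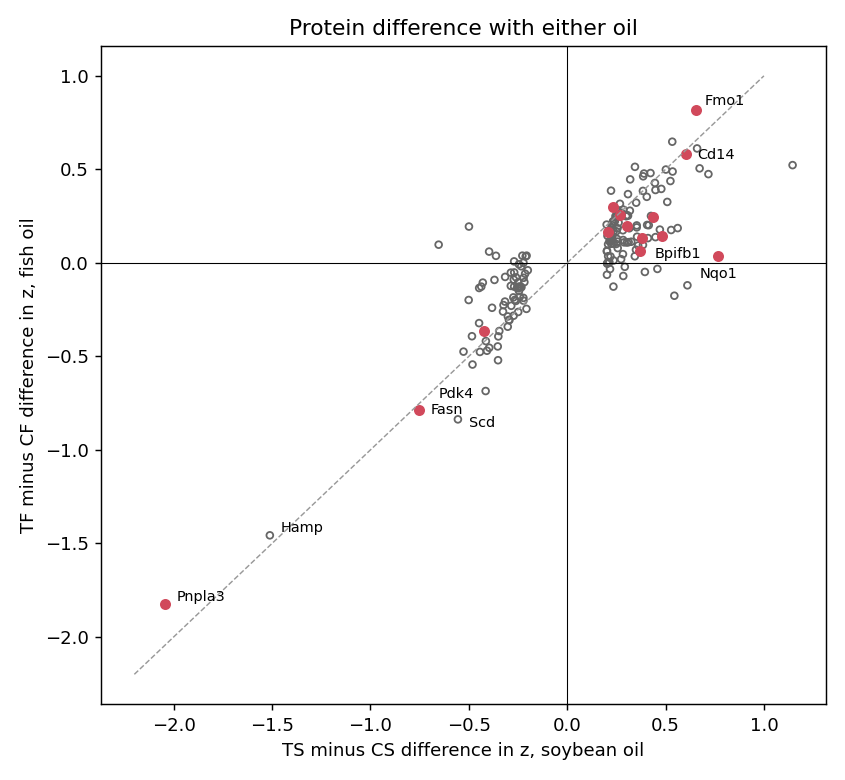
Each point is 1 of the 184 genes at the study's thresholds in TS minus CS, with its difference in z with soybean oil on the x axis and with fish oil on the y axis. Filled red points had an adjusted p under 0.05 with soybean oil, and the dashed line marks equal differences. Pnpla3, Fasn, Cd14 and Fmo1 lie near the line, and Nqo1 lies near 0 with fish oil.

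The difference between the oils was tested as an interaction and called no probe set (0 of 31040, lowest adjusted p 0.484). At an unadjusted p under 0.05 in limma it had 1065, fewer than the 2218 of TS minus CS and the 2142 of TF minus CF. Its SE was wider, 0.107 at the median against 0.0754 for TS minus CS. The largest of the called genes was Nqo1, whose rise with soybean oil exceeded that with fish oil by 0.73 (SE 0.13, unadjusted p = 2.84e-05). Lrrc56 differed by 0.26 (SE 0.05), and Bpifb1 and Olig2 by 0.34 (SE 0.10) and 0.30 (SE 0.09). On the other probe set of Olig2 the interaction was -0.007. The called genes were picked by their difference with soybean oil, which is part of the interaction. That choice alone favours a larger difference with soybean oil, so these values are descriptive. A probe set of Pnpla3, 1380643_at, had a more negative difference with soybean oil than with fish oil (-0.59, SE 0.11), on which CF rats read 0.17 to 0.42 and TF rats -0.65 to -0.46. On 1380013_at, also of Pnpla3, the interaction was -0.55 (SE 0.19), and on the brightest probe set of the gene -0.22 (SE 0.19). The TS and TF values of 1380643_at are far below the array medians, and no fold is given.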

How the data were processed

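Livers of 20 rats were measured on Affymetrix rat genome arrays, 1 per rat. The authors normalized each array with the SuperNORM service to its own lognormal distribution and deposited a z score on a log scale per probe set; background treatment is not given in the sources used here. The 57 control probe sets were left out. Of the rest, 31040 had at least 3 values in each of TS and CS and were tested, 31028 of them with all 5 in each group, 4 with 3 in a group, and 2 probe sets had fewer and were not tested. The array annotation gave 1 symbol for 20826, several for 436 and none for 9778, and 20758 symbols were updated by gene identifier.

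The 4 group means were fitted over all arrays with limma 3.58.1 in R 4.3.3, without covariates, and p-values were adjusted by Benjamini-Hochberg over all probe sets. The scripts were tested on simulated data. Depth is not defined for arrays, and their number limits the precision. The samples are separate rats by their numbers. The text names the called genes, the called members of each list, up to 3 members with the largest differences in a list without one, and Srebf1, Cyp7a1, Cpt1a, Cd68 and Alb. Some genes of the naming rule are not reported here. Of 689 list entries 613 were measured. The comparison, the lists and the names were chosen with earlier results of these data known. Promoters are 300-base windows from RefSeq (GRCr8).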

Additional observations from a re-analysis of the deposited data

Results flagged for a closer look

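Dixon's ratio, the gap of the outermost rat over the range of its group, exceeded its 95% critical value of 0.71 for 5 samples in 17 of 322 groups of 5, and chance flags about 1 in 20. Among the called genes CS-6 was low for Fasn (0.896), CS-5 for Nqo1 (0.923) and CS-2 for Egf (0.719), and TS-5 was high for Bpifb1 (0.789).

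CS-6 was also low in the mean of fatty acid synthesis (0.842, 1.59 against 1.77 to 1.80) and of Nrf2 targets and glutathione synthesis (0.795). TS-1 was low for Fabp2 (0.717), Tkt (0.765) and the mean of the cell cycle list (0.815, 0.02 against 0.15 to 0.18). TS-2 was low for Cbs (0.812), Oat (0.721) and Slc4a1 (0.776). TS-5 was high for Lss (0.769), TS-4 high for Insig2 (0.733) and TS-7 low for Cyp26b1 (0.764). Of the array checks, CS-1 was low in 5' beta-actin (0.777) and TS-7 in its mean correlation with the other arrays (0.832). No cause was tested. No difference between the oils passed the interaction test.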

How the results depend on the processing

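Probe sets called numbered 22 (13 higher and 9 lower in TS), 12 of them also called in TF minus CF, with 6 list genes. Quantile normalization gave 23 (8 higher, 15 lower) with 10 list genes, and scaling to 1 median and interquartile range 16 (8 and 8), a change in the split of the directions. Among the rises, Ces1c, Ang, Slc13a4, Egf, Olig2 and Lrrc56 lost their calls with quantile normalization. All of these but Ces1c lost them with the other scaling too. These 2 scalings moved the median difference over genes to -0.003 and -0.005 from 0.014. Probe sets with a mean z above 0 alone gave 49 of fewer tested (31 higher, 18 lower, 26 called with both oils, 16 list genes). Only the TS and CS arrays gave 12 (7 and 5), with fewer arrays behind the spread. A variance trend with robust estimation gave 20 higher, 20 called with both oils and 11 list genes. Without CS-1 and TS-1 there were 7 (2 higher, 5 lower, 6 with both oils, 3 list genes). Chosen after seeing the data, leaving out TS-7, TF-4 and TF-5, the arrays least correlated with the others, gave 9 (3 higher, 5 with both oils, 3 list genes), and a block for the low 5' beta-actin array of each group gave 26. The study's thresholds, applied to limma in place of the study's own test, gave 383. Leaving out 1 rat at a time gave 11 to 26 in all, 5 to 14 higher, 6 to 12 lower, 8 to 12 with both oils and 4 to 9 list genes. The fewest came without TS-4. With the rat number as a replicate block 23 were called (15 higher) with 10 list genes. The numbers do not pair the rats: the deviations of rats numbered alike correlated by 0.05, 0.05, 0.04 and -0.05, and no rat matched its own number best. The interaction called 0 in each fit that tested it. The probe sets of Pnpla3, Nqo1 and Cd14 were called in all 19 alternative fits. No named gene changed sign: of 2167 values under alternatives 145 lost and 36 gained an adjusted p under 0.05. Only genes called in the main fit could lose it, so the 145 are not to be read as a share of the 2167. Lrrc56 kept its call in 1 of 8 fits with other settings and in 1 of 10 that left out a rat. For Olig2 these were 2 of 8 and 1 of 10, and for Egf 4 of 9 and 1 of 10. The causes of these shifts were not tested. No probe set has a measure of background, so low values such as those of Bpifb1, Olig2 and Lrrc56 are bounded by an unknown floor.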
